A study of Mus musculus with 16 samples.

Results

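The comparison set ileum against colon in the 4 mice that carried Δchat *Bifidobacterium breve*. It used 8 of the 16 libraries of the series, 1 of ileum and 1 of colon from each mouse, and paired them by mouse number. All mice had the wild-type genotype, were born germ-free, were colonized with 1 bacterium for 5 weeks and were kept in gnotobiotic isocages, so the gut held no other microbe. *B. breve* is a commensal of the infant gut. The Δchat strain makes no acetylcholine, and 4 further mice given the wild-type (WT) strain supplied the same comparison with a bacterium that makes it. The age, sex and strain of the mice were not given in the sources used here. The cells were lamina propria immune cells, the leukocytes of the connective tissue under the gut epithelium, collected between layers of 40% and 80% Percoll, a density medium. Their poly-A RNA was sequenced in bulk. Of 35647 genes in the deposited table, 15198 passed the filter on low counts, and these are the genes compared.

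The ileum is the last stretch of the small intestine and the colon is the large intestine. Both lie along 1 tube whose parts keep a record of position in the Hox genes, transcription factors that mark the body axis from head to tail. In mice, the small intestine is rich in IgA plasma cells, in T cells that carry the homing receptor CCR9, and in cytotoxic lymphocytes of the epithelial layer, and Paneth cells with their antimicrobial peptides sit in its crypts alone. The colon lacks Paneth cells and has a stroma of its own that feeds Wnt and BMP signals to the crypts. Interferons are cytokines that switch on a shared set of antiviral and antimicrobial genes through STAT and IRF transcription factors.

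Totals of estimated counts ran from 15.9 M to 23.4 M over the 8 libraries, and 17261 to 18209 genes had a count. Levels are given as CPM, the counts of a gene relative to the total of its library (M stands for 10 to the power 6, and 1 CPM for 1 count in 1 M), scaled between libraries by TMM, in the order of mice 1 to 4. Fold changes are log2 values of ileum over colon within mice, from edgeR's quasi-likelihood test. The SE beside them is the absolute fold change over the square root of that test's F statistic. It thus restates the test, was not estimated on its own, and is approximate for genes near 0 counts in a tissue. A gene was called at a Benjamini-Hochberg adjusted p under 0.05 over all genes tested. The pan-leukocyte marker *Ptprc* stood between 588 and 1103 CPM in the 8 libraries, and markers of T cells, B cells, plasma cells and macrophages were present in all of them. Fibroblast, smooth muscle and endothelial markers were present too, with *Col1a1* between 234 and 1805 CPM. In a bulk sample, fewer cells of a type and less RNA per cell cannot be told apart.

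Epithelial RNA set 1 library apart. The summed level of 22 general epithelial genes was 6224 CPM in the colon of mouse 3, between 414 and 505 CPM in the other 3 colons and between 233 and 684 CPM in the ileum. Genes of goblet, tuft and enteroendocrine cells summed to 1152 CPM in that library and to at most 105 CPM in the other colons. Values without mouse 3 are therefore given beside many of the results. Mouse 2 stood apart in another way. Its ileum had the highest sum of 28 genes of resident macrophages, 12280 CPM against 3405 to 6155 CPM in the other ileums, and the lowest sum of general epithelial genes.

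**Figure D1:**
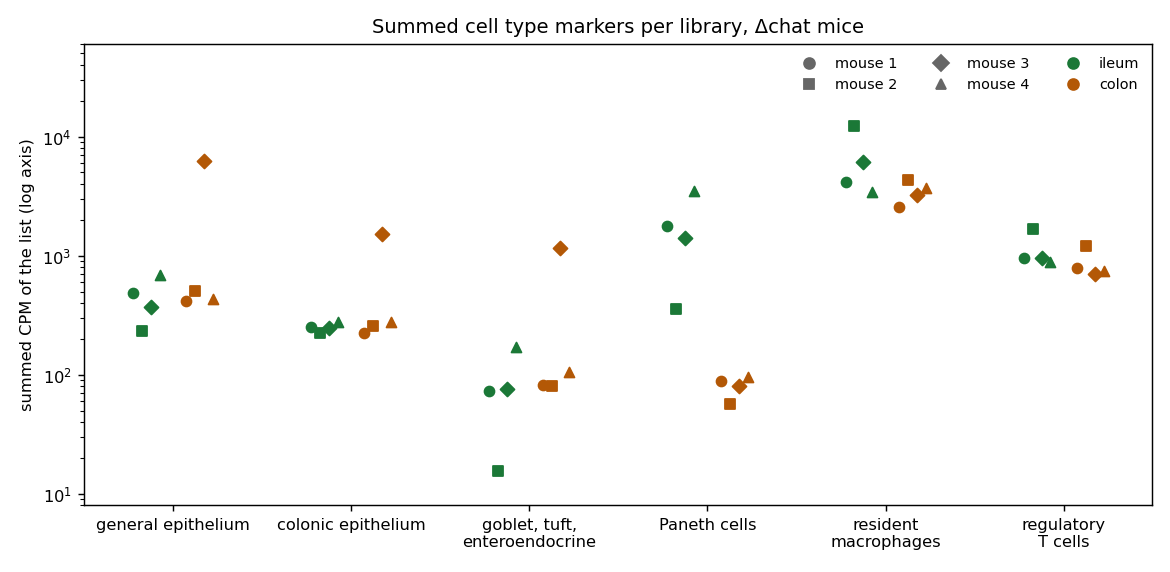
Summed CPM of 6 marker lists (horizontal axis) in each of the 8 Δchat libraries (vertical axis, log scale), with ileum in green, colon in orange and 1 marker shape per mouse. The colon of mouse 3 lies above every other library in the first 3 lists, Paneth cell genes separate the tissues, and mouse 2 has the highest sum of regulatory T cell genes in both tissues.

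Ileum and colon differed in 1875 genes (12.3% of those tested), of which 1175 were higher in ileum (7.73%) and 700 higher in colon (4.61%). Counts of list members given below for the full fit stand against these shares. The difference was at least 2-fold for 559 of the first and 446 of the second, and at least 8-fold for 83 and 97. The 4 ileum libraries all lay above the 4 colon libraries for 955 of the 1175 genes higher in ileum. They all lay below them for 484 of the 700 higher in colon. Over all genes tested, the called ones included, these were 1426 (9.38%) and 925 (6.09%). The call and the lack of overlap rest on the same values, so the second is no further support for the first. The median log2 fold change over all genes was -0.02. The number of calls fell to 865 without mouse 1, to 839 without mouse 2 and to 1111 without mouse 3, when 644 genes were higher in ileum (4.22%) and 467 higher in colon (3.06%). It was 876 in a fit of the 8 Δchat libraries alone and 1127 with an epithelial score as a covariate. Genes higher in ileum and in colon numbered 592 and 273 of 15341 without mouse 1 and 575 and 264 of 15341 without mouse 2. Without mouse 4 they numbered 1098 and 582 of 15317. DESeq2 called 1531 and 1234 of 15198, and limma-voom 1270 and 802. List counts from another fit stand against the counts over all genes in that fit. Of the 1875 genes, 1830 had the same sign of fold change in the WT mice.

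Most posterior Hox genes were higher in colon. The list of posterior Hox genes held *Hoxb9*, *Hoxc9*, *Hoxd9* and the genes of higher number. Of its 11 tested members, 9 were higher in colon and none higher in ileum, with a median log2 fold change of -6.64, or -6.21 with the 4 genes that had no count in any ileum set at their bound. *Hoxa11* (ENSMUSG00000038210) stood at 6.49, 5.05, 9.39 and 7.71 CPM in colon and 0.131, 0, 0 and 0 CPM in ileum, so that 2 counts in all were seen in the 4 ileum libraries. The ratio of colon to ileum was 288, with a counting interval at 95% confidence of 79.5 to 2385. *Hoxa10* stood at 8.16, 7.49, 14.2 and 9.73 CPM in colon and 0, 0.218, 0.514 and 0.171 CPM in ileum (log2 fold change -5.49 ± 0.71, adjusted p = 0.00298). No library of ileum reached the lowest colon library for either gene.

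*Hoxb13*, *Hoxd13* and *Hoxa13*, the last genes of their clusters, had no count in any ileum library. Their colon levels in mice 1 to 4 were 5.69, 6.03, 86.4 and 2.87 CPM for *Hoxb13*, 4.01, 6.07, 35.5 and 1.11 CPM for *Hoxd13* and 2.29, 2.17, 9.68 and 2.12 CPM for *Hoxa13*. Against a floor of 3 counts over the group of ileum libraries, they were at least 719-fold, 331-fold and 113-fold higher in colon. The colon of mouse 3 was highest for all 3, and the test held without that mouse (adjusted p = 0.0156, 0.00867 and 0.00913). *Isl1*, a LIM homeobox gene, likewise had no count in ileum and 1.94, 1.73, 5.59 and 1.92 CPM in colon, at least 76.7-fold higher (adjusted p = 0.0032, and 0.00953 without mouse 3). *Pitx1*, a homeobox gene of hindlimb and hindgut, stood at 9.27, 7.44, 20.03 and 15.2 CPM in colon and 1.05, 0.327, 0.90 and 1.07 CPM in ileum (log2 fold change -3.95 ± 0.33, adjusted p = 8.9e-04). It was several-fold lower in every ileum than in any colon.

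Of 22 anterior and middle Hox genes tested, 4 were higher in ileum and 1, *Hoxa9*, higher in colon, with a median of 0.45. *Hoxa9* was put on this list although *Hoxb9*, *Hoxc9* and *Hoxd9*, of the same number, were on the posterior list. The 1 gene higher in colon is thus one that the posterior list could have held. Without mouse 1, 2 or 3, 2 were called higher in ileum. *Hoxc8* stood at 2.35, 3.32, 6.81 and 2.53 CPM in ileum and 0.176, 0, 0.0835 and 0 CPM in colon (log2 fold change 5.72 ± 0.95, adjusted p = 0.00741), and *Hoxc6* at 2.29, 2.45, 5.27 and 2.79 CPM in ileum and 0.441, 0.177, 0.835 and 0.756 CPM in colon (log2 fold change 2.59 ± 0.39, adjusted p = 0.00481). *Hoxc5* (log2 fold change 3.901 ± 0.87, adjusted p = 0.0213) and *Hoxa4* (log2 fold change 1.37 ± 0.29, adjusted p = 0.0185) were higher in ileum as well, and neither held without mouse 3 (adjusted p = 0.069 and 0.0729). The genes higher in ileum thus included 3 neighbours of 1 cluster, *Hoxc5*, *Hoxc6* and *Hoxc8*. *Hoxa9* stood at 0.654, 1.36, 2.01 and 0.557 CPM in ileum and 9.62, 5.58, 12.1 and 7.46 CPM in colon (log2 fold change -2.99 ± 0.47, adjusted p = 0.00566).

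**Figure D2:**
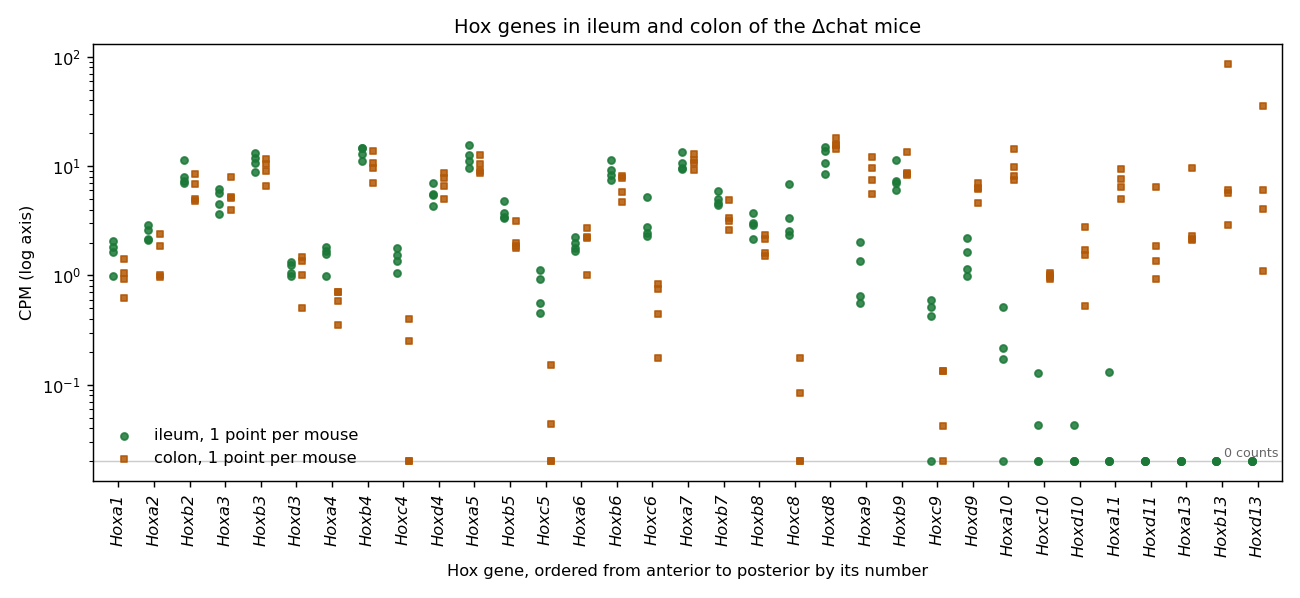
CPM (vertical axis, log scale) of the 33 Hox genes tested, ordered by number from anterior to posterior (horizontal axis), with 1 point for each of 4 ileum libraries (green) and 4 colon libraries (orange) of the Δchat mice; points on the grey line had no count. From *Hoxa10* on, ileum lies below colon for every gene, and *Hoxc5*, *Hoxc6* and *Hoxc8* lie the other way.

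Several genes of gut-homing and cytotoxic lymphocytes were higher in ileum, each in all 4 mice. *Ccr9* (ENSMUSG00000029530), the receptor for the chemokine CCL25 that draws lymphocytes to the small intestine, stood at 77.4, 82.3, 60.6 and 64.7 CPM in ileum and 12.2, 8.77, 8.93 and 7.21 CPM in colon. Its log2 fold change was 2.95 ± 0.19 (adjusted p = 2.9e-04), and every ileum lay above every colon. *Gzma* (ENSMUSG00000023132), a serine protease of cytotoxic granules, stood at 34.3, 30.1, 28.7 and 23.4 CPM in ileum and 1.63, 2.08, 2.5 and 2.67 CPM in colon (log2 fold change 3.71 ± 0.20, adjusted p = 1.3e-04). The lowest ileum of *Gzma* was several-fold above the highest colon. *Cd160*, a receptor of intraepithelial and other cytotoxic lymphocytes, stood at 15.7, 22.9, 12.9 and 15.6 CPM in ileum and 7.41, 6.73, 4.3 and 5.75 CPM in colon (log2 fold change 1.47 ± 0.14, adjusted p = 0.0011).

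Of 24 T cell genes, 18 were higher in ileum and 1, *Ccr7*, higher in colon, with a median of 0.92. Without mouse 3, 6 were called higher in ileum and the median was 0.79, and without mouse 4, 9 were. *Cd4*, the co-receptor of helper T cells, stood at 75, 154, 82.2 and 69.7 CPM in ileum and 34.4, 65.8, 29.5 and 31.4 CPM in colon (log2 fold change 1.25 ± 0.10, adjusted p = 7.2e-04). *Cd4* was highest in mouse 2 in both tissues, and every ileum lay above every colon. *Cd6*, a T cell surface receptor, stood at 55.3, 67.8, 41.8 and 54.2 CPM in ileum and 27, 32.2, 10.3 and 12.3 CPM in colon (log2 fold change 1.56 ± 0.22, adjusted p = 0.00381), and the signalling kinase *Zap70* had a log2 change of 1.03 ± 0.14 (adjusted p = 0.0035). Of 23 genes of cytotoxic, NK and Th1 cells, 12 were higher in ileum and none higher in colon, with a median of 0.89. Among them *Il12rb1*, a receptor subunit shared by interleukin-12 and interleukin-23, stood at 24.1, 37.1, 24.4 and 24.8 CPM in ileum and 9.44, 8.99, 6.72 and 7.51 CPM in colon (log2 fold change 1.75 ± 0.18, adjusted p = 0.00147). *Nkg7*, a granule protein of killer cells, had a log2 change of 1.04 ± 0.12 (adjusted p = 0.00231). Of 19 genes of intraepithelial and γδ T cells, 9 were higher in ileum and none higher in colon, *Gzmb* and *Ccl5* among them.

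Of 21 genes of T helper 17 cells and group 3 innate lymphoid cells, 7 were higher in ileum and 1, *Ccr6*, higher in colon, with a median of 0.47, and 4 were called higher in ileum without mouse 1 or mouse 2. *Il23r*, the receptor chain for interleukin-23, stood at 7.98, 5.5, 9.77 and 5.31 CPM in ileum and 3.93, 3.37, 3.38 and 2.02 CPM in colon (log2 fold change 1.16 ± 0.21, adjusted p = 0.0102), without overlap. The transcription factor *Rora* had a log2 change of 0.86 ± 0.15 (adjusted p = 0.00825). *Runx2*, a transcription factor outside these lists, stood at 50.7, 59.8, 39.6 and 42.6 CPM in ileum and 16.1, 20.03, 17.2 and 18.2 CPM in colon (log2 fold change 1.41 ± 0.11, adjusted p = 7.2e-04). Of the 23 genes of gut homing and retinoic acid, 7 were higher in ileum and 1 higher in colon, while 12 of 23 fold changes were negative and the median was -0.14. Retinoic acid, made from vitamin A, imprints gut homing on lymphocytes. Its receptor *Rarb* was higher in ileum, at 6.41, 3.87, 5.79 and 5.87 CPM in ileum and 2.47, 0.753, 1.75 and 2.02 CPM in colon (log2 fold change 1.72 ± 0.30, adjusted p = 0.00865), and *Rbp4*, the retinol carrier of plasma, was higher in colon, at 2.21, 3.72, 5.8 and 5.85 CPM in colon and 0, 0.0545, 0.60 and 0.643 CPM in ileum (log2 fold change -3.998 ± 0.66, adjusted p = 0.00735). One ileum had no count of *Rbp4*.

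Immunoglobulin RNA took a larger share of counts in each ileum than in the colon of the same mouse. Immunoglobulin genes, 424 in the table, held 10.3 ± 2.30% of counts in ileum (SD, n = 4) and 3.77 ± 0.51% in colon, and the share was higher in ileum in 4 of 4 mice. An exact 2-sided permutation test over the 4 pairs gave p = 0.125, the smallest that 4 pairs allow. An unpaired permutation test over 4 against 4 libraries, which ignores that they come in pairs, gave p = 0.0286. That is 0.0381 after adjustment over 4 measures. *Igha*, the heavy chain of IgA, held 5.55 ± 1.33% of counts in ileum and 1.83 ± 0.27% in colon (SD, n = 4). *Ighm*, the heavy chain of IgM, held 0.0393 ± 0.0135% and 0.0682 ± 0.0203%, lower in ileum in 4 of 4 mice. The exact permutation test gave p = 0.125 over pairs and p = 0.0571 over unpaired libraries, and neither passed.

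In the fit over all genes, *Igha* stood at 74607, 42338, 49787 and 59973 CPM in ileum and 17398, 16643, 19584 and 14138 CPM in colon (log2 fold change 1.72 ± 0.19, adjusted p = 0.00189), and *Jchain*, which joins IgA into dimers, at 12885, 7869, 8715 and 10892 CPM in ileum and 3568, 3802, 4135 and 2927 CPM in colon (log2 fold change 1.47 ± 0.17, adjusted p = 0.00243). Neither overlapped between tissues. Of 26 genes of plasma cells and IgA, 15 were higher in ileum and none higher in colon, with a median of 0.88. *Prdm1*, the transcription factor BLIMP-1 of plasma cells, stood at 96.6, 109.7, 95.6 and 81.1 CPM in ileum and 47.8, 47.4, 48.8 and 51.7 CPM in colon (log2 fold change 0.96 ± 0.09, adjusted p = 0.0011). *Ccr10*, a receptor that guides IgA plasma cells to mucosal surfaces, stood at 65.8, 43.3, 46 and 53.2 CPM in ileum and 18.6, 17.7, 18.2 and 15.9 CPM in colon (log2 fold change 1.55 ± 0.13, adjusted p = 0.00103). The 2 groups were far apart in *Ccr10*, with no colon above the lowest ileum.

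Secretory cells rely on the unfolded protein response, which raises chaperones and disposal enzymes of the endoplasmic reticulum through the sensors ATF6, IRE1 and PERK. Of its 26 genes, 16 were higher in ileum and none higher in colon, with a median of 0.43, and 10 were called without mouse 1. *Xbp1*, the transcription factor that IRE1 splices and that plasma cells need, stood at 688, 485, 523 and 598 CPM in ileum and 314, 323, 345 and 343 CPM in colon (log2 fold change 0.78 ± 0.11, adjusted p = 0.00407). *Edem2*, which feeds misfolded glycoproteins to degradation, had 161, 129.98, 125 and 144 CPM in ileum and 62.2, 72.1, 79.3 and 62.4 CPM in colon (log2 fold change 1.02 ± 0.12, adjusted p = 0.00218), and *Atf6* itself a log2 change of 0.81 ± 0.08 (adjusted p = 0.0011).

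Promoters of this list were read from RefSeq, build GRCm38.p6, for the 250 bases before the gene start. The motif searched was the endoplasmic reticulum stress element that ATF6 and NF-Y bind, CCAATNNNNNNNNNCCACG, on both strands. It was found in 8 of the 23 members with a promoter entry and in 0.159% of all tested genes with one. Of the members with an entry, 3 of the 13 called held it and 5 of the 10 not called. The 3 called members that hold it are shown with the element in capitals, on the strand of the gene, to show the letters around it. They were chosen for the motif after their values were seen.
Dnajc3 (chr14:118937792-118937880, plus strand): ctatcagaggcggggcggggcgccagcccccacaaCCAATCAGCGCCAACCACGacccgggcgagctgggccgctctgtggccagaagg
Creld2 (chr15:88819485-88819573, plus strand): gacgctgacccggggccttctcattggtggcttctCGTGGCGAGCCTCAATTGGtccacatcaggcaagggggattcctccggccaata
Hsp90b1 (chr10:86705498-86705586, minus strand): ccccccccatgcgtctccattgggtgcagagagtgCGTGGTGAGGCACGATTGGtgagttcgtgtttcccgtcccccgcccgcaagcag
In *Creld2* and *Hsp90b1* the element is read on the opposite strand. The co-chaperone *Dnajc3* had 172, 184, 184 and 177 CPM in ileum and 121, 131, 144 and 139 CPM in colon (log2 fold change 0.43 ± 0.07, adjusted p = 0.00527). The disulfide isomerase *Creld2* had a log2 change of 0.55 ± 0.09 (adjusted p = 0.00633) and the chaperone *Hsp90b1* one of 0.43 ± 0.09 (adjusted p = 0.0168, and 0.0557 without mouse 3).

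Interferon-induced genes were higher in ileum nearly throughout. Of 30 tested, 28 were higher in ileum and none higher in colon, with a median of 0.97, and for 26 no ileum overlapped a colon. Without mouse 3, 18 were called higher in ileum and the median was 0.83, and without mouse 2, 16 were. In the WT mice the median was 0.93. *Zbp1*, a sensor of left-handed nucleic acids, stood at 29.7, 33.6, 32.1 and 29.8 CPM in ileum and 11.9, 14.8, 10.5 and 8.97 CPM in colon (log2 fold change 1.46 ± 0.11, adjusted p = 6.5e-04). *Oas2*, which makes the second messenger that activates RNase L, stood at 19.9, 22, 31.8 and 23 CPM in ileum and 8.52, 9.17, 8.89 and 9.93 CPM in colon (log2 fold change 1.39 ± 0.15, adjusted p = 0.00207). *Igtp*, a GTPase that attacks the vacuoles of intracellular parasites, stood at 75.7, 114, 96.3 and 73 CPM in ileum and 40.1, 41.6, 31.1 and 40.1 CPM in colon (log2 fold change 1.22 ± 0.14, adjusted p = 0.00231). In each of these genes the lowest ileum lay above the highest colon.

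The 250 bases before the start of these genes were searched for the core of the interferon-stimulated response element, GAAANNGAAA, on both strands, again in RefSeq promoters of GRCm38.p6. It was found in 14 of the 22 members with an entry, all of them among the 21 called, and in 3.43% of all tested genes with an entry. The list was drawn up as interferon targets, so the motif is part of what the list is. A match is a description of the letters, not a shown site of binding. Stretches of 4 called members are printed, on the strand of the gene and with every match in capitals, overlapping ones joined, to show the letters around the element.
Bst2 (chr8:71537552-71537631, minus strand): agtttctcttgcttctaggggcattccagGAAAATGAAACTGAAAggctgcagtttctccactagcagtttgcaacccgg
Igtp (chr11:58199487-58199555, plus strand): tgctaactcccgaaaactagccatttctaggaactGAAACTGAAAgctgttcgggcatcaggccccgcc
Ifit1 (chr19:34640769-34640848, plus strand): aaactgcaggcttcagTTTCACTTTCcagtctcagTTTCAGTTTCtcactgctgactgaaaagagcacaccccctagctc
Isg15 (chr4:156200840-156200919, minus strand): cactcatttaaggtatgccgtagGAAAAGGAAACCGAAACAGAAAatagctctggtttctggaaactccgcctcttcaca
*Ifit1* and *Isg15* were chosen for these matches after their values were seen. *Ifit1*, which binds viral RNA lacking a host cap, stood at 57.9, 72.2, 123 and 67.3 CPM in ileum and 17.3, 25.8, 19.7 and 30.4 CPM in colon (log2 fold change 1.75 ± 0.23, adjusted p = 0.00329). *Isg15*, a ubiquitin-like modifier, had a log2 change of 1.54 ± 0.23 (adjusted p = 0.00507), and *Bst2*, or tetherin, which holds budding virus to the cell, one of 1.09 ± 0.10 (adjusted p = 0.0011).

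Chemokines that interferon-γ induces and that attract CXCR3-bearing T cells were several-fold higher in ileum. *Cxcl9* stood at 47.3, 118, 93.4 and 50.9 CPM in ileum and 7.37, 14.3, 11.3 and 16.5 CPM in colon (log2 fold change 2.605 ± 0.24, adjusted p = 0.0011), and *Cxcl10* at 178, 262, 284 and 166 CPM in ileum and 33.8, 46.3, 39.4 and 60.8 CPM in colon (log2 fold change 2.302 ± 0.22, adjusted p = 0.0011). Neither overlapped between tissues. Of 19 chemokine genes, 7 were higher in ileum and 1 higher in colon, *Ccl11*, or eotaxin-1, which attracts eosinophils, at 27.5, 28.1, 33.3 and 54.7 CPM in colon and 9.74, 10.1, 24.7 and 9.94 CPM in ileum (log2 fold change -1.46 ± 0.40, adjusted p = 0.0472), a call that was lost without mouse 1, 2 or 4. The count higher in ileum fell to 4 without mouse 1 and to 3 without mouse 2 or mouse 3. *Serpina3f* and *Serpina3g*, paralogous protease inhibitors whose reads the counting could share, had log2 fold changes of 2.402 ± 0.14 (adjusted p = 1.9e-04) and 1.24 ± 0.08 (adjusted p = 3.2e-04). *Tapbpl*, which edits the peptides on MHC class I, was among the genes of smallest p with a modest step, at 79.5, 75, 67.7 and 65.3 CPM in ileum and 40.9, 40.6, 38.1 and 40.1 CPM in colon (log2 fold change 0.84 ± 0.07, adjusted p = 7.2e-04).

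*Siglec1* (ENSMUSG00000027322), the sialic acid receptor CD169 of tissue macrophages, had the smallest p of all genes higher in ileum. It stood at 12.7, 22.2, 15.8 and 6.64 CPM in ileum and 1.06, 1.42, 0.918 and 0.605 CPM in colon (log2 fold change 3.79 ± 0.17, adjusted p = 6.0e-05). *C6* (ENSMUSG00000022181), a component of the complement attack complex, stood at 15.2, 29.4, 18.1 and 7.33 CPM in ileum and 0.309, 0.222, 0.292 and 0.252 CPM in colon (log2 fold change 5.91 ± 0.35, adjusted p = 1.9e-04). Mouse 4 was lowest in ileum for both genes and still far above every colon. Of 28 genes of resident macrophages, 14 were higher in ileum and 3 higher in colon, with a median of 0.72. Without mouse 3, the counts were 5 and 3 and the median 0.62, and the count higher in ileum was 6 without mouse 1 and 5 without mouse 2.

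*Csf1r*, the growth factor receptor on which macrophages depend, stood at 299.7, 965, 422 and 215 CPM in ileum and 91.6, 179.8, 104 and 136 CPM in colon (log2 fold change 1.71 ± 0.27, adjusted p = 0.00591). The complement gene *C1qa* stood at 225, 727, 324 and 161 CPM in ileum and 67.9, 154, 87.6 and 115 CPM in colon (log2 fold change 1.597 ± 0.28, adjusted p = 0.00959). Mouse 2 had the highest ileum value of both, and every ileum lay above every colon. The 3 members higher in colon were *Gas6*, *Gpnmb* and *Tmem119*. *Gpnmb*, a glycoprotein of lipid-laden macrophages, stood at 17.6, 20.6, 24 and 20.2 CPM in colon and 11.2, 6.32, 9.6 and 9.82 CPM in ileum (log2 fold change -1.18 ± 0.16, adjusted p = 0.00372). Of 20 genes of monocytes and neutrophils, 5 were higher in ileum and 3 higher in colon, which became 2 and 2 without mouse 1 and 1 and 1 without mouse 2 or mouse 3. The gelatinase *Mmp9* was higher in ileum (log2 fold change 1.78 ± 0.25, adjusted p = 0.00381) and the proteoglycan *Vcan* in colon (log2 fold change -1.77 ± 0.21, adjusted p = 0.00253). Of 26 pattern recognition genes, 7 were higher in ileum and none higher in colon. The 7 became 1 without mouse 1 and 2 without mouse 2 or mouse 3.

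Metabolite receptors and bile acid genes were read as 1 list of 25 genes. Of these, 7 were higher in ileum and none higher in colon, with a median of 0.01. The 7 were *Ffar2*, *Hcar2*, *Ahrr*, *Cyp1a1*, *Cyp1b1*, *Tiparp* and *Abcb1a*, so not all were receptors of metabolites. Without mouse 3, 3 were called and the median was 0.35, and without mouse 1 or mouse 2, 4 were called higher in ileum and the medians were negative, at -0.09 and -0.08. *Ffar2*, a receptor for short-chain fatty acids, stood at 12, 11.8, 13.4 and 14.1 CPM in ileum and 1.5, 2.08, 2.17 and 3.23 CPM in colon (log2 fold change 2.55 ± 0.20, adjusted p = 7.2e-04). *Cyp1b1*, an oxidase that the aryl hydrocarbon receptor induces, stood at 38.8, 95.9, 96.6 and 55.1 CPM in ileum and 7.81, 8.42, 10.8 and 17.8 CPM in colon (log2 fold change 2.65 ± 0.29, adjusted p = 0.00207), and *Tiparp*, another of its targets, had a log2 change of 0.59 ± 0.09 (adjusted p = 0.0057). No colon library reached an ileum library in any of these 3 genes.

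Of 26 genes of B cells and germinal centres, edgeR called 1 higher in ileum and 2 higher in colon. Those are 3.85% and 7.69%, against 7.73% and 4.61% of all genes tested. Of the 26 fold changes, 20 were negative, with a median of -0.92. The number called higher in colon depended on the tool and the mice: it was 14 with DESeq2, 2 with limma-voom, and 4 without mouse 4, 1 without mouse 1 and none without mouse 2 or mouse 3, when 5 and 6 of the 26 had an unadjusted p under 0.05 in edgeR. Over all 15198 genes, DESeq2 called 1234 higher in colon and limma-voom 802. The ileum libraries differed widely among themselves, with sums from 1075 to 3531 CPM. *Fcrla*, a B cell protein that binds immunoglobulin, stood at 137, 126, 91 and 106 CPM in colon and 86.1, 20.9, 20.1 and 60.9 CPM in ileum (log2 fold change -1.55 ± 0.36, adjusted p = 0.0273). *Ccr7*, the receptor that takes lymphocytes and dendritic cells to lymphoid tissue, stood at 620.01, 627, 305 and 426 CPM in colon and 359, 75.4, 72.7 and 302 CPM in ileum (log2 fold change -1.59 ± 0.43, adjusted p = 0.0463). In both genes the ileums of mice 2 and 3 were low and those of mice 1 and 4 nearer to the colons, and neither gene held without mouse 3 (adjusted p = 0.092 and 0.142).

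*Nuggc*, a GTPase of germinal centre B cells, was the member higher in ileum, at 16.9, 10.8, 9.86 and 16.5 CPM in ileum and 3.97, 3.85, 4.76 and 3.28 CPM in colon (log2 fold change 1.73 ± 0.21, adjusted p = 0.00255). Of 17 genes of lymphoid tissue organisation, 4 were higher in ileum and 4 higher in colon, and without mouse 1 these were 2 and 2. Without mouse 2 or mouse 3, 2 were called, both higher in ileum, and without mouse 4 the counts were 2 and 3. *Cxcl13*, the chemokine that gathers B cells into follicles, stood at 4.41, 4.87, 19.5 and 8.17 CPM in colon and 1.57, 0.109, 0.90 and 0.643 CPM in ileum (log2 fold change -3.51 ± 0.71, adjusted p = 0.016), and without mouse 3, whose colon was highest, the adjusted p was 0.059. *Madcam1*, the vessel ligand of the gut homing integrin α4β7, was higher in ileum (log2 fold change 1.51 ± 0.27, adjusted p = 0.00966). So was *Gp2*, a receptor of M cells (log2 fold change 4.83 ± 0.81, adjusted p = 0.00763). *Gp2* was near the floor, with 39 counts over the ileum libraries and 1 over the colon libraries. Its ratio of ileum to colon was 43.2, with a counting interval at 95% confidence of 7.32 to 1751. *Tnfsf11* and *Il22ra2* were higher in ileum too, and neither held without mouse 3 (adjusted p = 0.106 and 0.114).

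Of 23 genes of blood and lymphatic endothelium, 8 were higher in ileum and 1 higher in colon, with a median of 0.54, and 5 were called higher in ileum without mouse 2 or mouse 3. *Sele*, the adhesion molecule E-selectin of activated vessels, stood at 49.4, 75.8, 117 and 57.3 CPM in ileum and 6.4, 18.7, 25.2 and 27.1 CPM in colon (log2 fold change 2.05 ± 0.27, adjusted p = 0.00306). *Vwf*, von Willebrand factor, stood at 568, 952, 1138 and 663 CPM in ileum and 272, 287, 298 and 359 CPM in colon (log2 fold change 1.402 ± 0.20, adjusted p = 0.00428), and *Icam1*, a ligand of leukocyte integrins, had a log2 change of 1.18 ± 0.19 (adjusted p = 0.00607). Each of the 3 was higher in every ileum than in any colon.

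**Figure D3:**
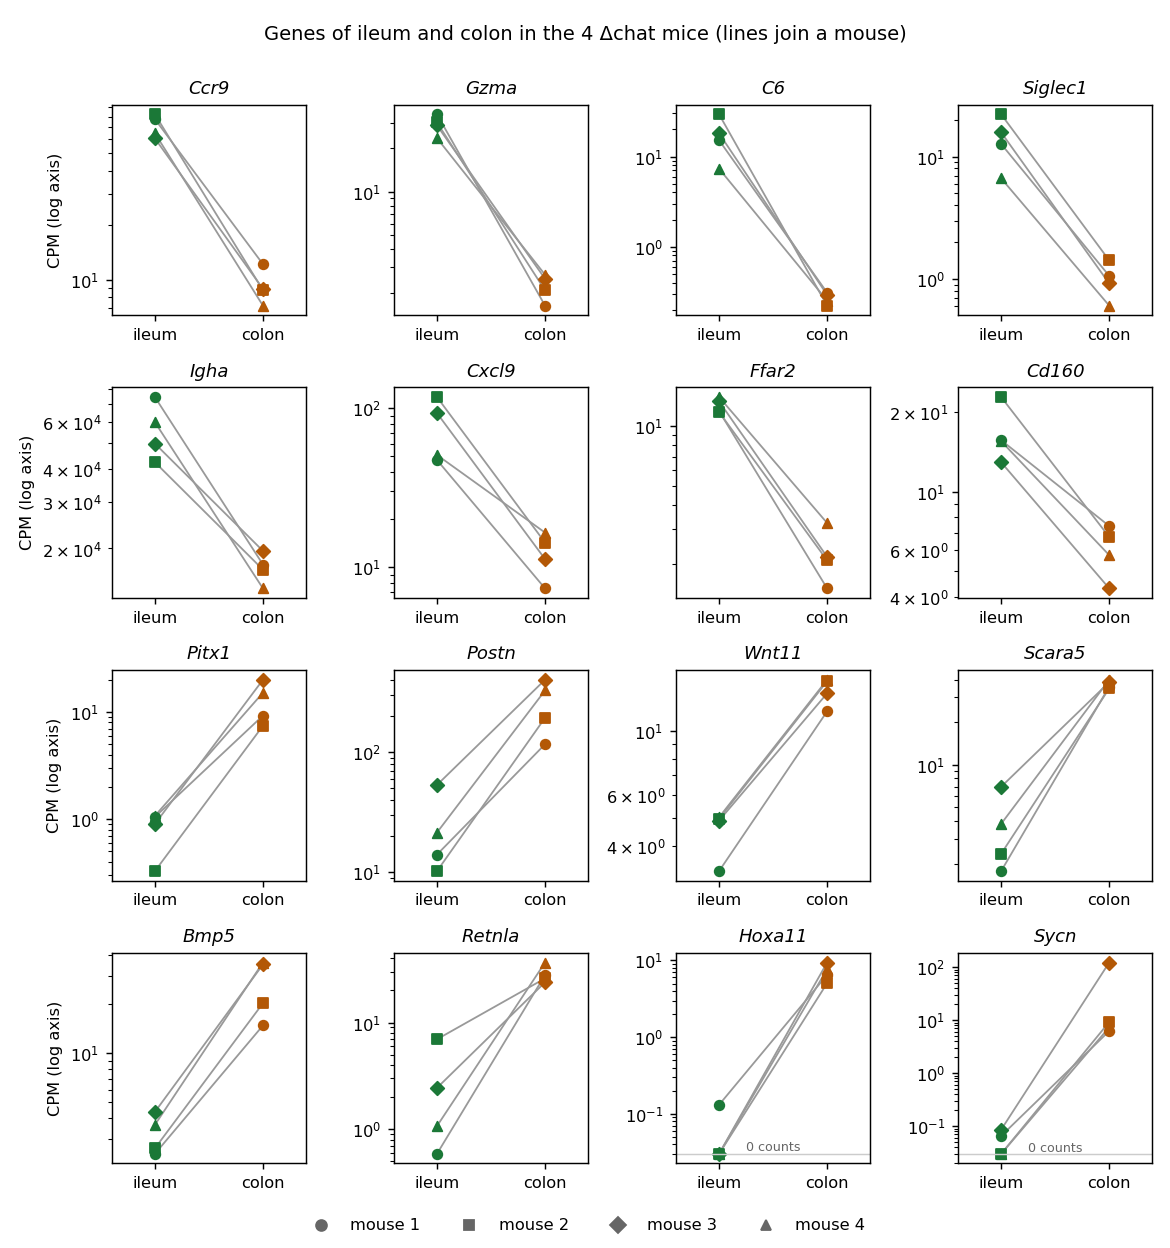
CPM (vertical axes, log scale) of 16 genes in ileum (green) and colon (orange) of the 4 Δchat mice, with a line joining the libraries of a mouse and points on the grey line for no count. The genes of the upper 2 rows are higher in ileum and those of the lower 2 rows higher in colon, each in all 4 mice and with no overlap.

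Of 24 genes of collagen and fibroblasts, 10 were higher in colon and 1 higher in ileum, with a median of -1.19. Without mouse 3, 16 were called higher in colon and the median was -1.61. Without mouse 1 or mouse 2, 4 were, and without mouse 4, 5. Calls higher in colon over all genes fell as well, to 273, 264 and 582 without mouse 1, 2 and 4. In the WT mice the median of this list was 0.08, and the difference between the strains was called for none of the 24. *Postn*, periostin, a matrix protein of fibroblasts, stood at 116, 193, 400.3 and 326 CPM in colon and 14, 10.2, 53.2 and 21.3 CPM in ileum (log2 fold change -3.53 ± 0.39, adjusted p = 0.00211). *Fn1*, fibronectin, stood at 434, 414, 751 and 598 CPM in colon and 150.2, 200.3, 281 and 149 CPM in ileum (log2 fold change -1.501 ± 0.22, adjusted p = 0.0047). *Pdpn*, podoplanin, stood at 10.6, 14.2, 20.4 and 20.8 CPM in colon and 1.77, 1.53, 8.23 and 3.64 CPM in ileum (log2 fold change -2.35 ± 0.38, adjusted p = 0.00677). In each, the ileum of mouse 3 was the highest of the ileums and still below every colon. *Col1a1*, chosen after its values were seen, showed that mouse most clearly, at 311, 234, 1805 and 629 CPM in ileum and 785, 992, 1340 and 1358 CPM in colon, with overlap and without a call (log2 fold change -1.04 ± 0.43, adjusted p = 0.154).

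Stromal cells send signals to the crypt. Wnt ligands keep crypt stem cells dividing, and BMP ligands drive cells to differentiate. Of 30 genes of stromal Wnt, BMP and niche signals, 12 were higher in colon and 2, *Rspo2* and *Dkk2*, higher in ileum. The median was -1.27, against -0.46 in the WT mice, and 7 were called higher in colon without Δchat mouse 1. *Bmp5* stood at 14.8, 20.3, 35.1 and 36 CPM in colon and 2.42, 2.61, 4.37 and 3.64 CPM in ileum (log2 fold change -2.98 ± 0.38, adjusted p = 0.00285). *Fgf7*, a growth factor for epithelium, stood at 2.12, 3.23, 5.09 and 5.04 CPM in colon and 0.392, 0.817, 1.29 and 1.71 CPM in ileum (log2 fold change -1.94 ± 0.28, adjusted p = 0.00428). *Wnt11* (ENSMUSG00000015957), a ligand of the β-catenin-independent branch, stood at 11.6, 14.8, 13.4 and 15 CPM in colon and 3.27, 4.96, 4.89 and 5.01 CPM in ileum (log2 fold change -1.61 ± 0.14, adjusted p = 0.00103). Colon and ileum did not overlap in any of these 3 genes. *Rspo2* was not past the threshold without mouse 3 (adjusted p = 0.169), nor was *Dkk2* (adjusted p = 0.0772), and both overlapped between tissues.

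*Scara5* (ENSMUSG00000022032), a ferritin receptor of fibroblasts, stood at 35.8, 34.7, 38.5 and 40.02 CPM in colon and 1.77, 2.34, 6.99 and 3.81 CPM in ileum (log2 fold change -3.45 ± 0.35, adjusted p = 0.00151). *Cdh13*, T-cadherin, stood at 41.3, 36.1, 41.2 and 48.2 CPM in colon and 10.8, 12.7, 16.8 and 13.3 CPM in ileum (log2 fold change -1.64 ± 0.16, adjusted p = 0.00115), and *S100a4*, a calcium-binding protein of fibroblasts and leukocytes, at 16.5, 21.6, 18.9 and 14.3 CPM in colon and 4.9, 7.95, 6.73 and 5.14 CPM in ileum (log2 fold change -1.54 ± 0.13, adjusted p = 8.9e-04). *Btnl9*, a butyrophilin-like gene, had a log2 change of -1.89 ± 0.20 (adjusted p = 0.00151). *Enpep*, an aminopeptidase that is listed among enterocyte genes, stood at 13.7, 14.1, 17.5 and 23 CPM in colon and 3.33, 4.3, 7.24 and 4.71 CPM in ileum (log2 fold change -1.82 ± 0.24, adjusted p = 0.0031), and *Hhip*, a decoy receptor of hedgehog ligands listed with smooth muscle, had a log2 change of -1.85 ± 0.22 (adjusted p = 0.00235). Of the 17 smooth muscle genes, 2 were higher in colon and none higher in ileum. Of 13 genes of enteric neurons and glia, 2 were higher in ileum, while 9 of 13 fold changes were negative and the median was -0.41. One of the 2 was *Ret*, the receptor for GDNF family ligands, at 52.4, 56.5, 68.1 and 46.8 CPM in ileum and 16.3, 14.1, 16.9 and 18.5 CPM in colon (log2 fold change 1.76 ± 0.23, adjusted p = 0.0031), and the sum of the list was 131 CPM in the colon of mouse 3 and at most 65.7 CPM in the other colons.

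Of 16 genes of Paneth cells and antimicrobial peptides, 15 were higher in ileum and none higher in colon with all 4 mice in the fit. The count depended on every mouse and on the filter: it was 3 without mouse 1, 4 without mouse 2, 3 without mouse 3 and 0 without mouse 4, when 16 of 16 had an unadjusted p under 0.05 in edgeR, and 3 with no filter on low counts. DESeq2 called 16 and limma-voom 16. Their median was 8.13, or 8.09 with 1 gene without counts in colon set at its bound. Their sum was 1791, 356, 1419 and 3518 CPM in ileum and between 57.2 and 95.5 CPM in colon. *Lyz1*, the lysozyme of Paneth cells, stood at 594, 157, 429 and 1015 CPM in ileum and 71.8, 56.8, 79.3 and 95.5 CPM in colon (adjusted p = 0.0166). *Mmp7*, the protease that activates α-defensins in the mouse, stood at 11, 3.38, 11.4 and 27.9 CPM in ileum and 0.265, 0.177, 0.0835 and 0 CPM in colon (log2 fold change 6.31 ± 1.28, adjusted p = 0.0167). Neither was called without mouse 1 or without mouse 4. Mouse 2 was lowest and mouse 4 highest in ileum for both, and the sum of general epithelial genes was 485, 233, 373 and 684 CPM in the same ileums. With an epithelial score as a covariate, 8 of the 16 Paneth list genes were called higher in ileum and their median was 8.61. Beyond that fit, the part of these epithelial sums in the result was not tested.

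The α-defensins are near-identical copies, so reads of 1 gene can be counted for another and single members are uncertain. *Defa32*, which is outside the Paneth list, stood at 105, 22.1, 90.6 and 248 CPM in ileum and 0.441, 0, 0 and 0 CPM in colon (log2 fold change 9.86 ± 1.29, adjusted p = 0.0035) and held under every alternative, and the other 7 that ranked highest by fold did not hold with any 1 Δchat mouse left out. *Defa37* had 74.5, 15.3, 57.1 and 148 CPM in ileum and no count in colon, at least 2296-fold higher in ileum. The median of the Paneth list was 12.5 without mouse 1 and 7.66 without mouse 3. Genes without counts in colon were not set at a bound in these fits. The 12.5 is therefore not read as a larger difference between the tissues. *Fabp6*, the bile acid binding protein of ileal enterocytes, was near 0, at 0.915, 1.36, 1.41 and 0.857 CPM in ileum and 0, 0, 0.209 and 0 CPM in colon (log2 fold change 4.59 ± 0.93, adjusted p = 0.0157).

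None of the 22 general epithelial genes was called by edgeR, where 2 had an unadjusted p under 0.05, nor by limma-voom, and DESeq2 called 3 higher in colon. *Krt8*, a keratin of simple epithelia, stood at 65.3, 7.19, 47.1 and 115 CPM in ileum and 65, 79.8, 1069 and 62.7 CPM in colon (log2 fold change -1.73 ± 1.31, adjusted p = 0.433), and *Lypd8*, a colonic protein that keeps bacteria off the mucosa, at 10.7, 1.58, 5.23 and 11.7 CPM in ileum and 22, 34.4, 1062 and 48.9 CPM in colon (log2 fold change -3.51 ± 1.20, adjusted p = 0.0977). The median of the list was -1.47, and -0.39 without mouse 3. Of 12 colonic epithelial genes, 4 were higher in colon and 2 higher in ileum, and without mouse 3 these were 3 and 1.

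Other genes of large fold in colon were highest in the epithelium-rich library and yet called without it. *Sycn* (ENSMUSG00000084174), syncollin of secretory granules, had the smallest p of all genes higher in colon, at 6.26, 9.26, 123 and 7.36 CPM in colon and 0.0654, 0, 0.0857 and 0 CPM in ileum. Its ratio of colon to ileum was 1034, with a counting interval of 354 to 5018, and the adjusted p was 2.2e-04, and 0.00519 without mouse 3. *Slc6a14*, an amino acid transporter, stood at 3.97, 5.18, 103 and 4.74 CPM in colon and 0.0654, 0, 0 and 0.0429 CPM in ileum, with an adjusted p of 0.00103, and 0.0059 without mouse 3. *Mptx1*, a mucosal pentraxin, stood at 15.2, 17.3, 209 and 16.9 CPM in colon and 0, 0, 0.0429 and 0 CPM in ileum, with an adjusted p of 0.00231, and 0.0356 without mouse 3. Each was high in all 4 colons and at most a few counts in ileum, so the tissues did not overlap in any mouse.

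*Tgm3*, a transglutaminase, stood at 3.84, 7.84, 239.9 and 11.1 CPM in colon and 0, 0.272, 0.129 and 0.0857 CPM in ileum (adjusted p = 0.0011, and 0.00487 without mouse 3), and *Wfdc2*, a protease inhibitor of epithelia, at 5.38, 6.11, 53.7 and 2.42 CPM in colon and 0, 0.109, 0 and 0.0429 CPM in ileum (adjusted p = 0.0011, and 0.00487 without mouse 3). *Gsdmc3*, a gasdermin with near copies, had no count in ileum and 3.35, 4.03, 96.9 and 3.98 CPM in colon, at least 772-fold higher over the 4 libraries (adjusted p = 0.0143, and 0.0419 without mouse 3). *Atp12a*, a proton pump, and *Casp14*, a caspase of keratinising epithelium, were at least 532-fold and 216-fold higher in colon and were not past the threshold without mouse 3 (adjusted p = 0.0502 and 0.0693). *Cela1*, an elastase, stood at 7.01, 10.1, 102 and 5.39 CPM in colon and 0.85, 1.04, 0.429 and 0.729 CPM in ileum (log2 fold change -4.18 ± 0.80, adjusted p = 0.0134, and adjusted p = 0.0059 without mouse 3), while 11 of the 13 listed genes of exocrine pancreas were too low to test.

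Of 16 genes of mast cells and basophils, 4 were higher in colon and 2 higher in ileum, with a median of -1.57. The median was -1.004 without mouse 3, -0.26 with the filter of 1 CPM and -0.27 in the 8 Δchat libraries alone, and the number called higher in colon was 2 without mouse 1, 2 or 3 and 7 with DESeq2 or limma-voom. The 4 were proteases of these cells. *Cpa3*, carboxypeptidase A of mast cells, stood at 6.71, 4.08, 5.47 and 2.82 CPM in colon and 0.915, 1.74, 1.67 and 1.16 CPM in ileum (log2 fold change -1.74 ± 0.28, adjusted p = 0.00677), and *Mcpt8*, the protease of basophils, at 2.25, 1.37, 1.71 and 0.907 CPM in colon and 0.327, 0.381, 0.514 and 0.257 CPM in ileum (log2 fold change -2.01 ± 0.34, adjusted p = 0.00777). *Mcpt4* and *Cma1* did not hold without mouse 3 (adjusted p = 0.113 and 0.124). The 2 higher in ileum were *Hdc*, which makes histamine, with a log2 change of 1.26 ± 0.21 (adjusted p = 0.00684), and *Gzmb*, which cytotoxic lymphocytes make too (log2 fold change 1.098 ± 0.15, adjusted p = 0.00364).

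Of 11 eosinophil genes, 2 were higher in ileum and 1 higher in colon. Their median was 0.07, against 2.45 in the WT mice, and the difference between the strains was called for none of the 11. *Prg2*, the major basic protein of eosinophil granules, stood at 55.2, 36.1, 36.3 and 36.3 CPM in ileum and 17.9, 19.98, 16.3 and 12.4 CPM in colon (log2 fold change 1.29 ± 0.14, adjusted p = 0.00174), and *Adgre4*, an adhesion receptor of myeloid cells, at 15.4, 33.6, 24.7 and 13.6 CPM in ileum and 4.76, 5.94, 5.13 and 5.54 CPM in colon (log2 fold change 1.95 ± 0.22, adjusted p = 0.00222). *Retnla*, a secreted resistin-like protein of type 2 immunity, went the other way, at 27.9, 26, 23.9 and 36.5 CPM in colon and 0.589, 6.97, 2.44 and 1.07 CPM in ileum (log2 fold change -3.77 ± 0.55, adjusted p = 0.00468). The ileum of mouse 2 was the highest of the ileums and below every colon. In the WT mice its log2 fold change was -0.37 ± 0.48, and the difference between the strains, -3.401 ± 0.72, did not pass (adjusted p = 0.339). Of 18 genes of type 2 lymphocytes, 3 were higher in ileum, *Arg1* among them (log2 fold change 1.32 ± 0.21, adjusted p = 0.00677), and 1 higher in colon, and 1 was higher in ileum without mouse 1, 2 or 3.

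Host genes of acetylcholine were read because the Δchat strain does not make this transmitter. Acetylcholine acts through muscarinic receptors, which couple to G proteins, and nicotinic receptors, which are ion channels, and cholinesterases break it down. Of 30 listed genes, 15 were tested, and 1 was higher in ileum and 2 higher in colon. Those are 6.67% and 13.3%, against 7.73% and 4.61% of all genes tested. *Chrm2*, a muscarinic receptor, stood at 12.6, 24, 28.7 and 15.5 CPM in ileum and 7.37, 6.47, 7.68 and 9.73 CPM in colon (log2 fold change 1.31 ± 0.28, adjusted p = 0.0173). No ileum overlapped a colon, and the call did not hold without mouse 2 or mouse 3 (adjusted p = 0.0665 without mouse 3). *Lynx1*, a membrane-anchored modulator of nicotinic receptors, stood at 32.1, 33.7, 25.7 and 29 CPM in colon and 17.1, 10.2, 16.8 and 17 CPM in ileum (log2 fold change -0.996 ± 0.17, adjusted p = 0.00849).

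*Bche*, butyrylcholinesterase, stood at 2.6, 2.35, 8.35 and 2.32 CPM in colon and 0.589, 0.49, 0.686 and 0.90 CPM in ileum (log2 fold change -2.34 ± 0.59, adjusted p = 0.034), with the highest value in the epithelium-rich colon of mouse 3 and an adjusted p of 0.121 without that mouse. *Ache*, acetylcholinesterase, had a log2 change of 0.51 ± 0.28 (adjusted p = 0.272). The nicotinic subunits *Chrnb1*, *Chrnb2* and *Chrna2* had 0.32 ± 0.13, -0.22 ± 0.25 and -0.50 ± 0.26, the muscarinic receptor *Chrm3* -0.07 ± 0.31 and the receptor chaperone *Ric3* 0.56 ± 0.23, none of them called. *Chat*, the enzyme that makes acetylcholine, had 3 counts over the 8 libraries and was not tested.

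Whether ileum and colon differed otherwise with Δchat than with WT bacteria was tested as the difference of the 2 fold changes in 1 fit over 16 libraries. It was called for 3 genes (0.0197% of those tested), all with a lower value of ileum over colon in the Δchat mice. *Tnfrsf9* (ENSMUSG00000028965), the costimulatory receptor 4-1BB of activated and regulatory T cells, stood at 26.9, 137, 27.5 and 22.4 CPM in ileum and 25.2, 104, 19.7 and 19.96 CPM in colon in the Δchat mice. In the WT mice it stood at 77, 94.8, 79.4 and 69.4 CPM in ileum and 21.6, 24.4, 22.7 and 21.7 CPM in colon. The log2 fold change was 0.29 ± 0.09 with Δchat and 1.82 ± 0.09 with WT, a difference of -1.53 ± 0.12 (adjusted p = 0.00836). Mouse 2 had several times the level of the other Δchat mice in both tissues.

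*Wnt11* was higher in colon with Δchat, as given above, and not with WT, where it stood at 14.5, 14.5, 14.8 and 11.2 CPM in ileum and 8.59, 14.5, 12.9 and 9.48 CPM in colon. The difference was -1.904 ± 0.20 (adjusted p = 0.0257). *Igkv1-135*, a variable segment of the κ light chain that shares sequence with other segments, stood at 173, 114, 79.97 and 159 CPM in ileum and 267, 93.8, 75.2 and 195 CPM in colon with Δchat. With WT it stood at 952, 799.8, 383 and 1315 CPM in ileum and 165, 177, 55.9 and 299 CPM in colon. The difference was -2.54 ± 0.23 (adjusted p = 0.0124). In the WT mice every ileum lay above every colon for *Igkv1-135*, and in the Δchat mice the tissues overlapped. None of the 3 differences was called when Δchat mouse 4, or WT mouse 1, 2 or 3, was left out, when edgeR called 0 genes and 824, 715, 1264 and 1578 genes had an unadjusted p under 0.05, in that order. Without Δchat mouse 2, 5 genes were called, and without WT mouse 4, 14. DESeq2 called 138 in the full set and limma-voom 6.

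The 7 genes next by p did not pass. They were *Dgat2* (-1.73 ± 0.22, adjusted p = 0.089), *Itgae* (-1.098 ± 0.14, adjusted p = 0.089), *Ikzf2* (-1.07 ± 0.14, adjusted p = 0.089), *Foxp3* (-1.64 ± 0.22, adjusted p = 0.0988), *Adam8* (-1.46 ± 0.20, adjusted p = 0.0988), *Ky* (-2.18 ± 0.31, adjusted p = 0.107) and *Il10* (-1.14 ± 0.17, adjusted p = 0.135). *Foxp3*, the transcription factor that defines regulatory T cells, stood at 12.8, 88.4, 8.49 and 10.9 CPM in ileum and 15.4, 73.5, 10.8 and 10.03 CPM in colon in the Δchat mice (log2 fold change -0.05 ± 0.16, adjusted p = 0.869). In the WT mice it stood at 33.5, 68.5, 30.2 and 41.2 CPM in ileum and 12.6, 15.6, 12.8 and 13.9 CPM in colon. Mouse 2 had the highest *Foxp3* of all 8 Δchat libraries in both tissues, and *Ky*, a muscle protease, was likewise high there alone, at 1.31, 20.4, 1.11 and 1.46 CPM in ileum and 2.69, 21.8, 2.13 and 1.86 CPM in colon.

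Within the Δchat mice, 8 of 21 genes of regulatory T cells were higher in ileum and none higher in colon, with a median of 0.29, against 0.81 in the WT mice. The count was 5 without mouse 1, 4 without mouse 2 and 5 without mouse 3. *Ctla4*, the inhibitory receptor of these cells, stood at 209, 287, 163 and 193 CPM in ileum and 78.5, 174, 59.4 and 58.2 CPM in colon (log2 fold change 1.33 ± 0.15, adjusted p = 0.00222). *Il10*, the anti-inflammatory cytokine that they and macrophages secrete, stood at 19.1, 40.5, 15.8 and 12.3 CPM in ileum and 10.6, 17.5, 8.93 and 8.22 CPM in colon (log2 fold change 0.87 ± 0.12, adjusted p = 0.00359). In both genes the colon of mouse 2 overlapped with ileums of other mice, and ileum was higher within each mouse.

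**Figure D4:**
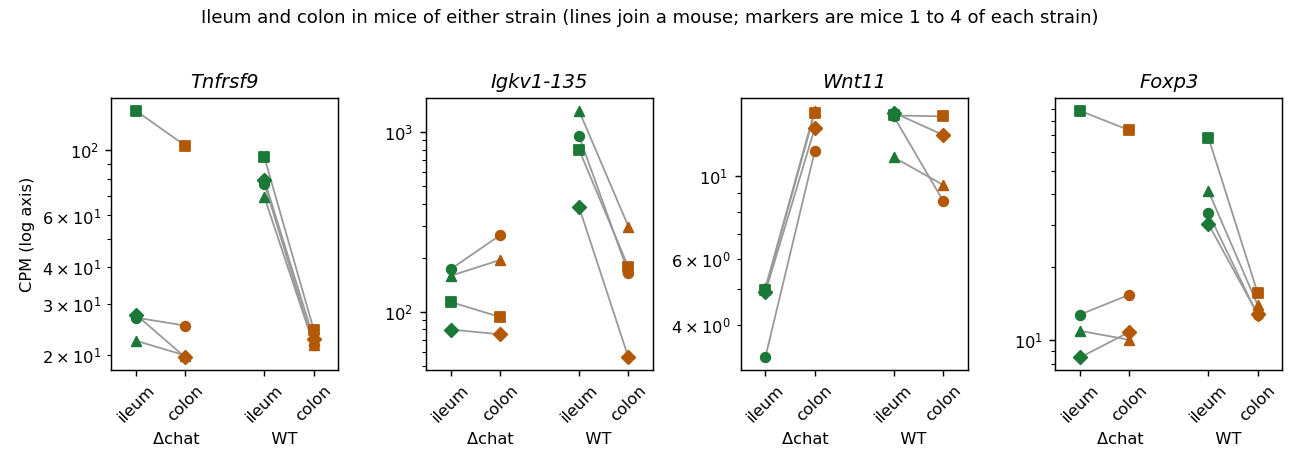
CPM (vertical axes, log scale) of 4 genes in ileum (green) and colon (orange) of mice with Δchat and with WT *B. breve*, with a line joining the libraries of a mouse. *Tnfrsf9* and *Foxp3* are higher in every WT ileum than in any WT colon and stand high in both tissues of Δchat mouse 2, and *Wnt11* does not overlap between tissues in the Δchat mice and does in the WT mice.

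None of 26 proliferation genes was called by edgeR, where 1 had an unadjusted p under 0.05, none was by DESeq2 and 1 was by limma-voom. Of 26 genes of glycolysis and hypoxia, 1 was higher in ileum and 1 higher in colon (3.85% each). Of 15 of MHC class II presentation, these were 2 and 1 (13.3% and 6.67%). The counts of both lists fell without mouse 1 or mouse 2. Over all genes tested, 7.73% were higher in ileum and 4.61% higher in colon. Counts this small are not read as a result about either list. Among the 30 heat shock and immediate early genes, 1 was higher in ileum and 3 higher in colon (3.33% and 10%). Both counts fell without mouse 1, 2 or 3. Of 19 clock genes, 2 were higher in ileum and 2 higher in colon (10.5% each), and 1 and 1 without mouse 1 or mouse 2. *Cry2*, a repressor of the clock, stood at 33.5, 33.9, 33.1 and 32.2 CPM in colon and 22, 20.4, 18.3 and 21.6 CPM in ileum (log2 fold change -0.69 ± 0.10, adjusted p = 0.00483). Of 24 dendritic cell genes, 3 were higher in ileum and 5 higher in colon, which became 1 and 2 without mouse 3 and 2 and 3 without mouse 1 or mouse 2, with the growth factor receptor *Flt3* (log2 fold change -0.63 ± 0.12, adjusted p = 0.0105) and *Wdfy4*, which cross-presentation needs (log2 fold change -0.87 ± 0.13, adjusted p = 0.0047), among the latter.

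**Figure D5:**
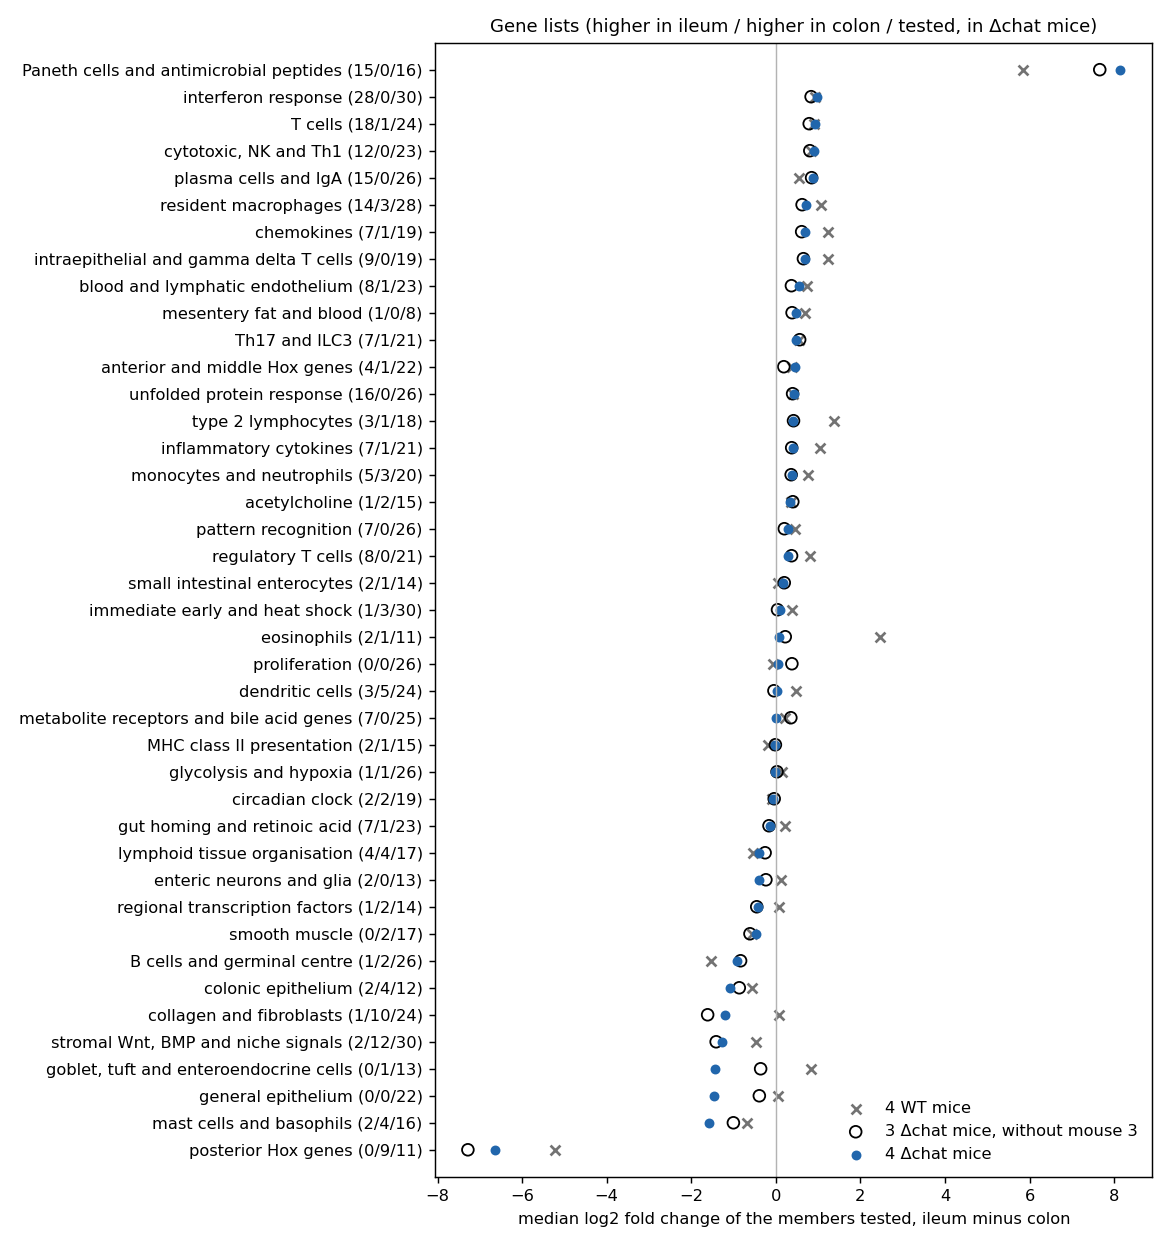
Median log2 fold change of ileum over colon (horizontal axis) for the 41 lists with at least 5 tested members (vertical axis), in all 4 Δchat mice (blue), without mouse 3 (open circles) and in the 4 WT mice (crosses). The numbers in brackets are members higher in ileum, higher in colon and tested; Paneth cell genes (8.13) and posterior Hox genes (-6.64) lie at the 2 ends.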

How the data were processed

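Titles gave the tissue, strain and replicate of each library, and all 16 were used. Per the submitters' processing notes, the authors trimmed reads with cutadapt 5.0 and estimated counts with Salmon 1.4.0 on GRCm39. The deposited table holds these estimated counts per Ensembl gene, which were rounded to whole counts here. It gives no positions. Symbols came from a table of GENCODE names and matched 35105 of 35647 identifiers. That a mouse gave both libraries of 1 number follows from the design, with 4 mice per strain and both tissues taken, and is not stated outright by the labels. Deviations from the group means of the ileum and colon of 1 number correlated at 0.22, 0.27, 0.19 and -0.18 across genes. The highest correlation of these ileums with a colon of another number was 0.06, 0.16, 0.21 and 0.22. For the ileums of mice 3 and 4 it was thus above that with their own number. All results within mice rest on this inferred pairing. The edgeR p-values rest on how far the ileum minus colon difference varied between mice, pooled over the 8 mice of both strains. Differences in level between mice are taken out by the block.

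The fit used edgeR 4.0.16 under R 4.3.3, with these steps: filterByExpr on the 4 groups, TMM scaling, and a robust quasi-likelihood fit over all 16 libraries with the mouse as a block and 1 ileum minus colon term for each strain. Tests were 2-sided. Within each tissue of the Δchat mice, no library repeated another. A chi-square test of counts gave 26.7 to 98.4 for each degree of freedom over these 12 pairs of replicates. Pairs across tissues and the WT libraries were not compared. The fit was tested on simulated counts before use. Alternatives were RLE size factors, no filter, a filter of 1 CPM in 4 libraries, DESeq2 1.42.0, limma-voom with quality weights (limma 3.58.1), no block, no immunoglobulin genes, an epithelial score as a covariate, the 8 Δchat libraries alone and each mouse left out. After the data were seen, a fit without the colon library of mouse 3 alone was added. Members and lists were chosen with earlier results of these data known, so a list is described by its counts and median and was not tested as a set. The genes named were up to 12 in each direction by smallest p whose higher tissue averaged 5 CPM or more, 8 more by fold (antigen receptor segments and unnamed models left out), up to 4 called members of each list in each direction (with none called, the highest expressed), the acetylcholine genes above 1 CPM, and the 10 of smallest p for the difference between strains. Genes outside that rule are named as members of a count or as chosen after their values were seen. Intervals and floors cover counting error only.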

Additional observations from a re-analysis of the deposited data

Results flagged for a closer look

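In 192 groups of 4 libraries, 38 held a value set apart from the other 3 by more than Dixon's critical gap at 95%. Chance flags about 1 group in 20. The groups share libraries and are not independent.

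The colon of mouse 3 supplied 21 of them. Its values were 8.35 CPM for *Bche*, 102 CPM for *Cela1*, 0.209 CPM for *Fabp6*, 96.9 CPM for *Gsdmc3*, 9.68 CPM for *Hoxa13*, 86.4 CPM for *Hoxb13*, 35.5 CPM for *Hoxd13*, 31.1 CPM for *Igtp*, 5.59 CPM for *Isl1*, 1069 CPM for *Krt8*, 1062 CPM for *Lypd8*, 209 CPM for *Mptx1*, 103 CPM for *Slc6a14*, 123 CPM for *Sycn*, 239.9 CPM for *Tgm3* and 53.7 CPM for *Wfdc2*. *Igtp*, an interferon-induced gene, was lowest in this library, and the other genes were highest. Its summed levels were 184 CPM for posterior Hox genes, 1536 CPM for colonic epithelium, 6224 CPM for general epithelium, 1152 CPM for goblet, tuft and enteroendocrine cells and 104 CPM for exocrine pancreas, the last resting on *Cela1*.

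Mouse 2 supplied 10. In ileum its values were 154 CPM for *Cd4*, 88.4 CPM for *Foxp3*, 37.1 CPM for *Il12rb1*, 20.4 CPM for *Ky*, 10.2 CPM for *Lynx1* and 137 CPM for *Tnfrsf9*, of which *Lynx1* was the lowest of the 4 ileums and the others the highest. In colon they were 65.8 CPM for *Cd4*, 73.5 CPM for *Foxp3*, 21.8 CPM for *Ky* and 104 CPM for *Tnfrsf9*, all the highest.

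In ileum, mouse 1 stood apart with 0.131 CPM for *Hoxa11*, 55.2 CPM for *Prg2* and 3.27 CPM for *Wnt11*, the last as the lowest, and mouse 3 with 24.7 CPM for *Ccl11*, 5.27 CPM for *Hoxc6* and 0.0429 CPM for *Mptx1*. In colon, mouse 1 stood apart with 0.441 CPM for *Defa32*. *Hoxa11*, *Mptx1*, *Fabp6* and *Defa32* rest on a few counts in the tissue where they are low.

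Ileum over colon differed between the strains, Δchat minus WT on the log2 scale, by -1.904 ± 0.20 for *Wnt11*, -1.53 ± 0.12 for *Tnfrsf9* and -2.54 ± 0.23 for *Igkv1-135* (edgeR, adjusted p = 0.0257, 0.00836 and 0.0124).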

How the results depend on the processing

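Of the 1875 genes called between ileum and colon, 1030 were among the 1127 called with an epithelial score as covariate and 831 among the 876 called in the 8 Δchat libraries alone. Leaving out 1 Δchat mouse gave 839 to 1680 calls, and leaving out 1 WT mouse 1601 to 1684. RLE size factors, no filter, a filter of 1 CPM, no immunoglobulin genes, limma-voom and DESeq2 gave 1871, 1564, 1846, 1836, 2072 and 2765. The calls leaned to ileum under each of these settings, from 55.4% of calls with DESeq2 to 68.5% without Δchat mouse 2. In the full fit the share was 62.7%. Of 185 genes named as called, 98 were called under each of the 18 alternatives that tested them and none changed direction.

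Without the block of mice the count was 2028, of which 1609 were shared, and the difference between strains was called for 9 genes, of which 1 was shared. The immunoglobulin share differed by 6.53 percentage points with and without the pairing, and only the unpaired exact permutation test could pass (p = 0.0286). It differed by 5.63 to 7.49 points with 1 mouse left out.

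The difference between strains was called for 0 to 14 genes with 1 mouse left out, for 138 by DESeq2 and for 6 by limma-voom. In the fit without the colon library of mouse 3, chosen after seeing the data, it was called for 7 and the comparison of tissues for 1705. Uncalled values near 0 changed sign. *Foxp3* was 0.13 without the block, 0.0084 with the epithelial covariate, 0.022 without mouse 1 and 0.040 without mouse 3. *Igkv1-135* was 0.025 without mouse 1, and *Chrm3* 0.10 without mouse 2. With 1 Δchat mouse left out, *Foxp3* ran from -0.17 to 0.040, *Igkv1-135* from -0.28 to 0.025 and *Chrm3* from -0.34 to 0.10. The cause of these changes was not tested. Genes at a few counts in 1 tissue have folds limited by depth.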
